A study of Mus musculus with 2 samples.

Results

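The mouse genes of 7 solute carrier families that carry amino acids, glucose and lactate were followed across the cell types of liver tumours. Every gene symbol in the files that belongs to the Slc1a, Slc2a, Slc3a, Slc7a, Slc16a, Slc38a or Slc43a series was taken, and 64 symbols matched. Of these, 56 held at least 10 unique molecular identifiers (UMIs, each counting 1 captured RNA molecule) over both libraries and are the members described here, out of 55450 genes in all. They comprise 6 Slc1a, 11 Slc2a, 2 Slc3a, 11 Slc7a, 14 Slc16a, 9 Slc38a and 3 Slc43a genes. Slc16a8, with 10 UMIs, lay just inside the minimum and Slc7a13, with 6, just outside it. Slc38a8 and Slc38a11 held 3 UMIs each, and Slc1a7, Slc2a7, Slc7a10, Slc7a12 and Slc7a15 held 0.

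The tumours were hepatocellular carcinomas of C57BL/6 mice, made by hydrodynamic tail vein injection, in which a large volume of plasmid solution forces DNA into hepatocytes. Mice of the first group, NRAS.MYC.ND, were given 19 ug of plasmid for human N-Ras, 1 ug for human c-Myc and 2 ug for the Sleeping Beauty transposase, which inserts the oncogenes into the genome. Mice of the second group, AKT1.MYC, were given 10 ug of plasmid for Akt1, 10 ug for human c-Myc and 5 ug for the transposase, so the amounts of c-Myc and transposase plasmid differed along with the oncogene. Tumours were resected 14 weeks after injection, dissociated and depleted of dead cells, and 1 droplet-based single-cell RNA library was made per group. The promoters of the constructs, the number and age of the animals and whether animals were pooled are not given in the sources used here. With 1 library per group there is no replicate and no test between the models: every interval below covers counting error only, and a difference between the libraries cannot be told apart from a difference between these preparations.

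Solute carriers move nutrients across membranes. SLC7 light chains reach the cell surface bound to an SLC3 heavy chain: SLC7A11 with SLC3A2 imports cystine, the source of cysteine for glutathione, in exchange for glutamate, and SLC7A5 with SLC3A2 imports leucine and other large neutral amino acids. SLC2 proteins let glucose cross down its gradient, SLC16 proteins carry lactate and other monocarboxylates together with protons, and SLC1 and SLC38 proteins use the sodium gradient to take up glutamate, glutamine and other neutral amino acids. In liver, hepatocytes are known for glutamine uptake and for glucose flow in both directions, whereas activated leukocytes are known for high glucose and amino acid uptake.

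The libraries held 6312 (NRAS.MYC.ND) and 10766 (AKT1.MYC) cell barcodes with 42416125 and 64516171 UMIs, of which 5961 and 10310 cells were kept. Of the kept cells, 4936 and 5780 were placed in 1 cell type by a gate on marker genes, 603 and 1849 carried markers of several types and were left out with possible doublets, and 422 and 2681 raised too few markers. Gates with at least 50 cells in each library numbered 8: hepatocyte (345 and 335 cells), duct-like epithelial (83 and 1225), epithelial with both marker sets (84 and 340), endothelial (840 and 401), mononuclear phagocyte (1400 and 1973), neutrophil (237 and 657), T cell (1274 and 84) and erythroid (76 and 131). B cells (281), conventional dendritic cells (146) and plasmacytoid dendritic cells (55) reached 50 cells in NRAS.MYC.ND alone, and fibroblasts, stellate cells or pericytes (576) in AKT1.MYC alone. The defining markers were present in their gates, though the summed hepatocyte markers of the hepatocyte gate stood at 117840.0 and 17329 CPM (counts scaled to a library of 1000000 UMIs) and its duct-like markers at 2053 and 7778, and the platelet gene Ppbp was among its 10 leading genes in NRAS.MYC.ND. RNA free in the suspension entered all gates: from the hepatocyte markers, it was estimated at 17.6% to 39.2% of the UMIs of a gate in NRAS.MYC.ND and at 19.8% to 67.8% in AKT1.MYC. This estimate can be too high, since it exceeded the measured level of some members. A level not above it could be free RNA but need not be, and ratios after its subtraction carry the same limit. Barcodes present in both libraries numbered 17.

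Levels are CPM of the UMIs summed over the cells of a gate, with exact Poisson 95% intervals, and the value of NRAS.MYC.ND stands first in each pair. Because the chemistry counts 3' ends, levels are compared between gates and libraries for the same gene, not between genes. In neutrophils Slc7a11, Slc2a3, Slc16a3 and Slc2a6 were above their levels in the other shared gates of both libraries. Hepatocytes held the amino acid carriers Slc38a3, Slc38a4 and Slc7a2, endothelial cells Slc43a3, phagocytes Slc7a8 and T cells Slc38a1. A member was called high in a gate when it was at least 2-fold above the mean of the other 7 shared gates in both libraries, with at least 10 UMIs in the gate in each. That held for 4 of 10 members measured in neutrophils (15.1% of all genes), 7 of 29 in hepatocytes (6.99%), 2 of 8 in T cells (11.9%), 5 of 28 in epithelial cells with both marker sets (6.14%), 4 of 31 in endothelial cells (16.8%), 4 of 32 in phagocytes (7.09%), 2 of 27 in duct-like cells (9.68%) and 0 of 2 in erythroid cells (2.12%). Of 37 members with at least 10 UMIs in their highest gate in both libraries, 17 had the same highest gate in both.

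**Figure D1:**
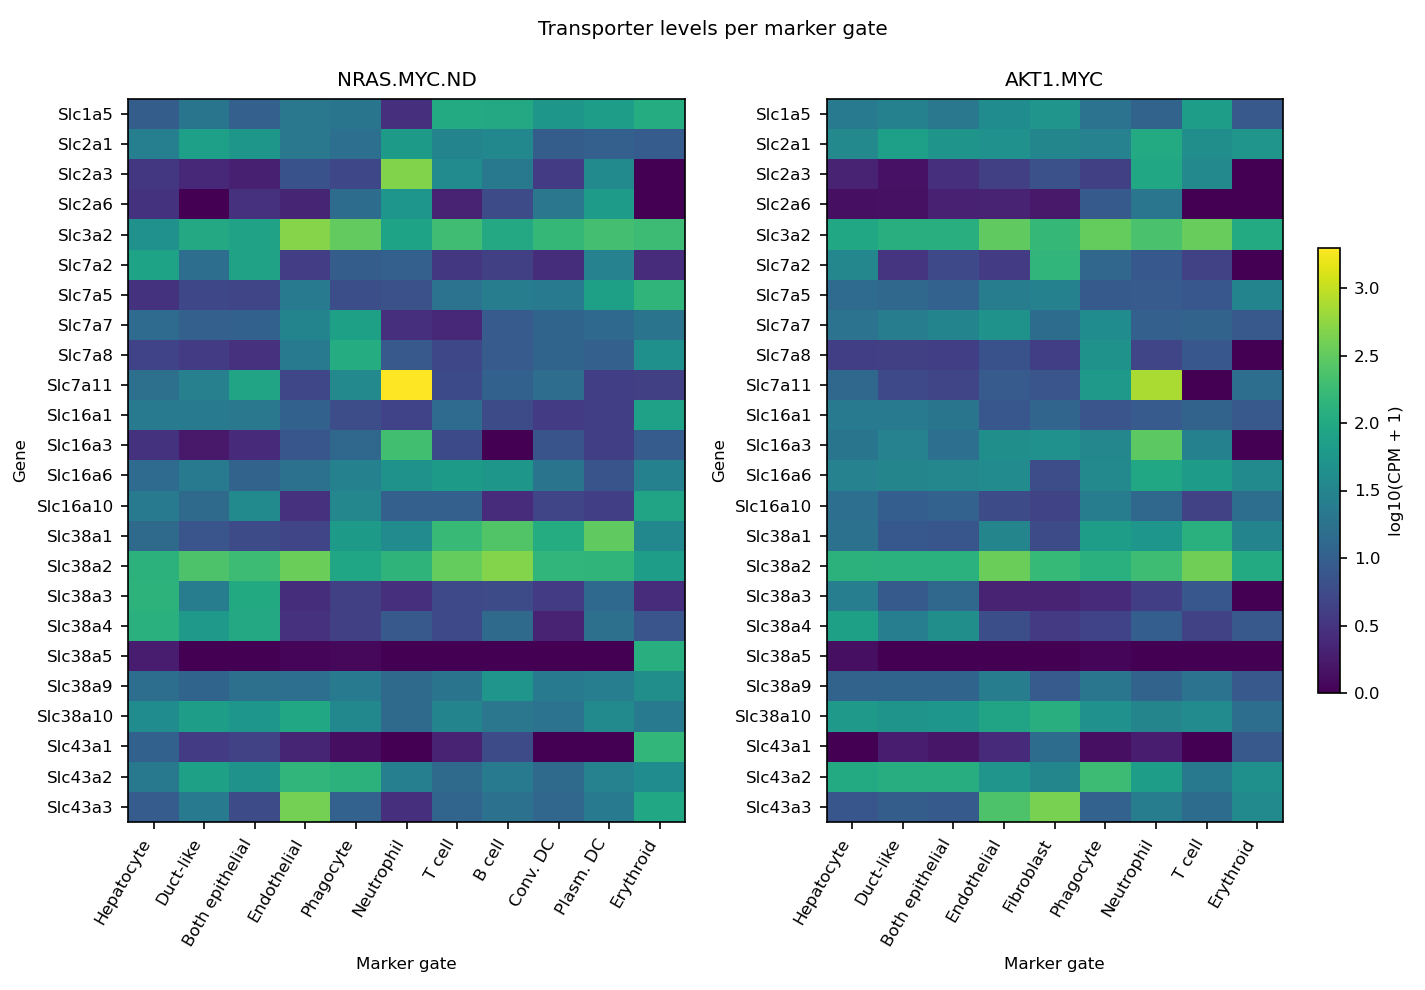
Levels of members that reached at least 50 CPM in a gate, as log10(CPM + 1) on the colour scale, with 1 row per gene and 1 column per marker gate, NRAS.MYC.ND on the left and AKT1.MYC on the right. Along the Slc7a11 row neutrophils are brightest in both panels, at 1976 and 767 CPM.

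Slc7a11, the cystine light chain (chr3:49892526-50443614, minus strand, GRCm38), was high in neutrophils of both libraries. In neutrophils it stood at 1976 CPM (1859.9 to 2098) in NRAS.MYC.ND and at 767 CPM (720.0 to 817) in AKT1.MYC, 80.6-fold and 53.5-fold above the mean of the other gates. The intervals of the libraries did not overlap, and the level was 2.58-fold higher in NRAS.MYC.ND (log2 ratio -1.36, -1.49 to -1.24, as AKT1.MYC over NRAS.MYC.ND here and throughout). A Slc7a11 UMI was found in 83.5% (78.2% to 88.0%) of 237 neutrophils of NRAS.MYC.ND and 49.2% (45.3% to 53.1%) of 657 of AKT1.MYC (exact Clopper-Pearson 95% intervals), at median depths of 1687 and 1839 UMIs per cell. With every cell thinned to 1151 UMIs, the shares were 74.6% of 213 and 41.1% of 591 cells, so the order of the libraries was the same at equal depth. T cells, which were deeper at medians of 2928.5 and 2801.5 UMIs, held a Slc7a11 UMI in 10 of 1274 cells or 0.785% (0.377% to 1.44%), and in 0 of 84 cells. For that 0 a limit of 3 cells, which is not an exact interval, gives a share of 3.57%. The annotation places the overlapping genes Gm37498 and Gm37692 on the same strand within the Slc7a11 locus, and reads could be split between them.

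The bases upstream of Slc7a11 are shown because this gene led the neutrophil gate and because amino acid shortage and oxidative stress are known to act on its promoter. The window holds the 250 bases before the RefSeq start (GRCm38.p6, chr3:50443614-50443863, minus strand, written 5′ to 3′ along the gene), and capitals mark both matches to TGATGNAA, the core of the amino acid response element, found on either strand.
Slc7a11 promoter: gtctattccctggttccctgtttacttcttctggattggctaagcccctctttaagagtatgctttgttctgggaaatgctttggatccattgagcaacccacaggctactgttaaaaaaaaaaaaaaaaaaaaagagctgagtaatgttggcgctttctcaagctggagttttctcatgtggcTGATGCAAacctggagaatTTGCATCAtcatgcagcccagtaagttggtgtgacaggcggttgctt
The matches lie on opposite strands. TGATGNAA occurred in 3.45% of 32817 RefSeq promoter windows of this length and in 2 of the 41 members with an entry, Slc7a11 and Slc7a7. The longer form TGATGNAAT, searched first, occurred in 0.817% of windows and in 0 members. The antioxidant response element core TGACNNNGC was not found in these 250 bases. These are matches of letters in a window, and binding was not measured.

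Outside neutrophils, Slc7a11 stood at 34.6 and 57.5 CPM in phagocytes, where Kupffer-like cells (2 or more raised Kupffer markers) were lower than phagocytes with no raised Kupffer marker, at 11.4 against 45.2 CPM in NRAS.MYC.ND and 35.1 against 61.3 CPM in AKT1.MYC. In epithelial cells with both marker sets it stood at 82.8 CPM (70.9 to 96.2) and 3.94 CPM (2.41 to 6.09), intervals that do not overlap. The NRAS.MYC.ND value came from 171 UMIs in 16 of 84 cells, and the log2 ratio of -4.39 became -1.67 when every cell weighed the same and -2.60 with a stricter gate. Duct-like cells showed the same order at 26.7 and 4.27 CPM, although with the stricter gate the log2 ratio there was -0.49, from -2.64. Slc3a2, the heavy chain that Slc7a11 and the large neutral light chains share, was present in every gate, at 494 and 311 CPM in endothelial cells, 323 and 329 CPM in phagocytes and 193 and 345 CPM in T cells. In neutrophils Slc3a2 ran opposite to its partner, at 80.8 CPM (58.7 to 108) and 223 CPM (198 to 251), 2.76-fold higher in AKT1.MYC, although the NRAS.MYC.ND level was no higher than the free RNA estimate of 105 CPM.

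The neutrophil gates of the libraries differed in their own markers, and these values stand beside every neutrophil ratio. All 12 neutrophil markers were detected in both, with summed levels of 260892 and 72402 CPM. The granule genes of immature neutrophils Ngp (12044 and 1474 CPM) and Camp (10066 and 1392 CPM) were higher in NRAS.MYC.ND, and Cxcr2, a receptor of mature neutrophils, stood at 454 and 304 CPM. Their part in the transporter differences was not tested.

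**Figure D2:**
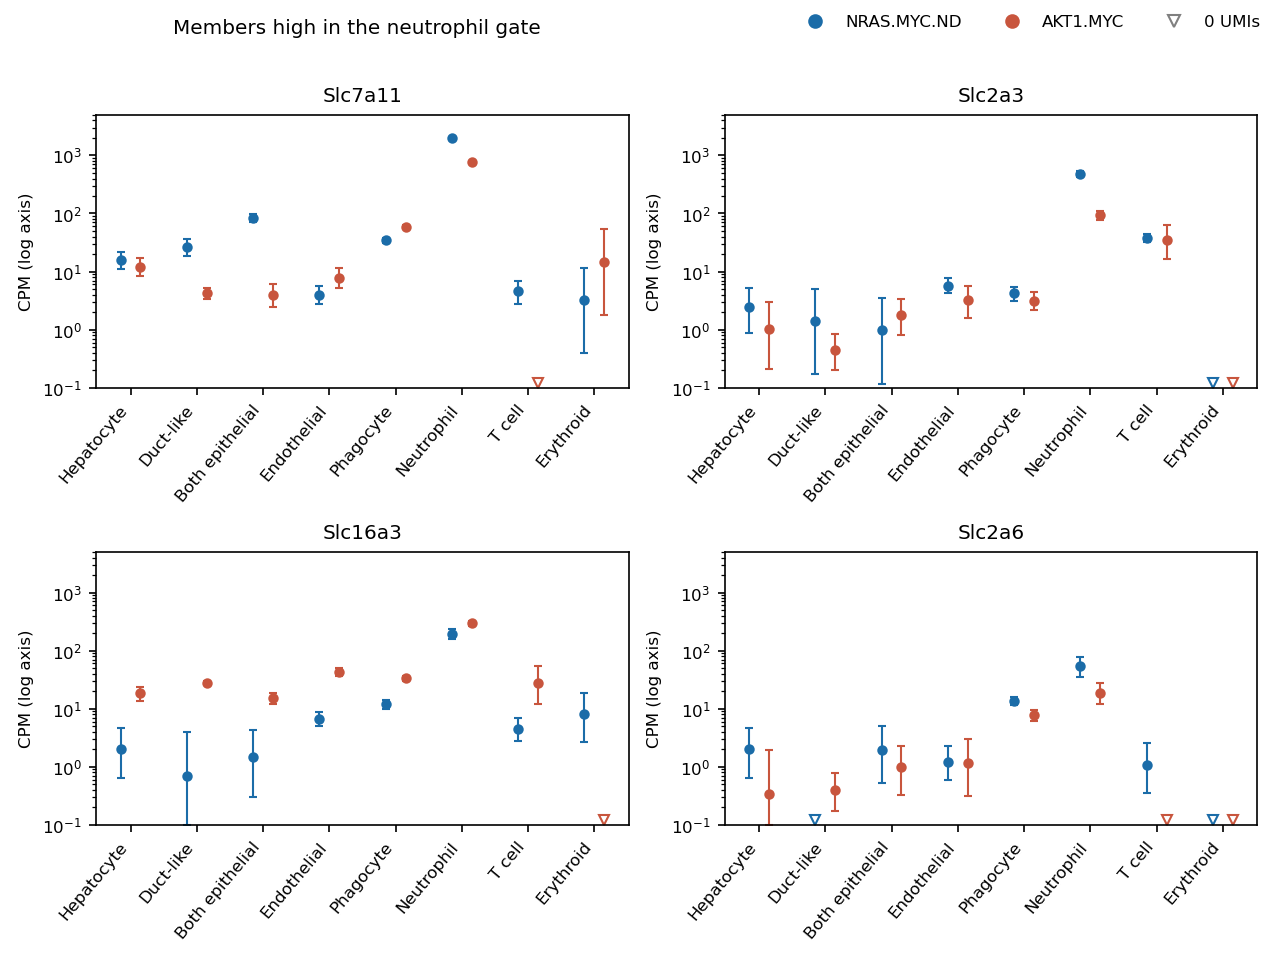
Levels of Slc7a11, Slc2a3, Slc16a3 and Slc2a6 in the 8 shared gates, in CPM on a log axis, with NRAS.MYC.ND in blue and AKT1.MYC in red. Points are the summed level of a gate, bars are exact Poisson 95% intervals and open triangles are gates with 0 UMIs. In all 4 panels the neutrophil points stand above those of the other gates.

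Glucose carriers divided by cell type. Slc2a3, the high-affinity glucose carrier of neurons and leukocytes (chr6:122727809-122801640, minus strand), stood in neutrophils at 478 CPM (421 to 539) and 92.9 CPM (76.9 to 111), 63.7-fold and 14.7-fold above the mean of the other gates. The intervals did not overlap and NRAS.MYC.ND was 5.14-fold higher (log2 ratio -2.36, -2.69 to -2.04). Shares of neutrophils with a Slc2a3 UMI were 56.1% (49.5% to 62.5%) and 12.8% (10.3% to 15.6%), or 38.5% and 9.14% after thinning, against 1.45% (0.472% to 3.35%) and 0.896% (0.185% to 2.59%) of hepatocytes, whose median depths were 2151 and 2074 UMIs. T cells came next at 37.7 and 34.5 CPM, with overlapping intervals between the libraries. Slc2a6, a carrier of lysosomal membranes in myeloid cells, followed Slc2a3 in neutrophils at 53.3 CPM (35.7 to 76.5) and 18.7 CPM (12.002 to 27.9), and it stood at 64.6 CPM in the plasmacytoid dendritic cells of NRAS.MYC.ND. With the stricter gate its neutrophil log2 ratio was -0.66, from -1.51.

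Slc2a1, the widely expressed basal glucose carrier, was found in every gate. Duct-like cells held 71.7 and 71.4 CPM, values that differ by less than their counting error, and neutrophils held 62.4 CPM (43.2 to 87.3) and 105 CPM (87.6 to 124). Endothelial cells passed 2-fold for Slc2a1, at 19.9 and 46.2 CPM, 2.32-fold higher in AKT1.MYC (log2 ratio 1.22, 0.89 to 1.54). Thinned to equal UMIs, that log2 ratio was 0.71, under 2-fold. In erythroid cells the 8.09 and 51.6 CPM rest on 5 and 7 UMIs. Slc2a2, the low-affinity glucose carrier of hepatocytes, was highest in the epithelial gates, at 18.5 and 22.9 CPM in hepatocytes, 33.7 and 13.6 CPM in duct-like cells and 36.8 and 25.8 CPM in cells with both marker sets. Its duct-like level was 2.48-fold higher in NRAS.MYC.ND. Slc2a9, a urate carrier, was higher in NRAS.MYC.ND in all 3 epithelial gates, at 12.9 and 4.16 CPM in hepatocytes, 8.43 and 3.83 CPM in duct-like cells and 27.1 and 4.14 CPM in cells with both marker sets. The log2 ratio of Slc2a9 was under 2-fold in hepatocytes with every cell weighed the same (-0.85) and in duct-like cells with the stricter gate (-0.43), and so was that of Slc2a2 in duct-like cells when thinned (-0.91). Slc2a8 lay between 7.23 and 16.8 CPM over the hepatocyte, duct-like, both-marker, endothelial and phagocyte gates of the libraries. Outside these gates it ranged from 0 UMIs in NRAS.MYC.ND neutrophils (upper limit 6.78 CPM) to 19.5 CPM in AKT1.MYC fibroblasts. Slc2a13, an inositol carrier, was low and highest in endothelial cells, at 4.88 and 3.47 CPM.

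Slc16a3, the lactate exporter of glycolytic cells (chr11:120948480-120960868, plus strand), combined a neutrophil pattern with a difference between the libraries that ran through most gates. Neutrophils held 197 CPM (161 to 237) and 295 CPM (266 to 326), 39.1-fold and 12.5-fold above the mean of the other gates, and there the libraries differed by 1.501-fold, under the 2-fold used for a call. In the other 6 gates where it was measured Slc16a3 was at least 2-fold higher in AKT1.MYC. Duct-like cells showed the widest gap, with 1 UMI against 560, or 0.702 CPM (0.0178 to 3.91) and 27.8 CPM (25.6 to 30.2) (log2 ratio 5.31, 2.82 to 10.61). Endothelial cells held 6.59 CPM (4.95 to 8.60) and 43.4 CPM (36.7 to 50.9) (log2 ratio 2.72, 2.26 to 3.19), without overlap. Phagocytes held 11.8 CPM (9.97 to 13.9) and 33.1 CPM (29.7 to 36.8) (log2 ratio 1.49, 1.20 to 1.78), also without overlap. Levels were 2.01 and 18.4 CPM in hepatocytes, 1.45 and 15.2 CPM in epithelial cells with both marker sets and 4.55 and 27.6 CPM in T cells. In these 3 gates the AKT1.MYC interval was not above the free RNA estimate (14.2, 14.2 and 14.6 CPM). After that estimate was subtracted, the log2 ratio was 2.97 in duct-like cells, 3.002 in endothelial cells and 1.30 in phagocytes. With cells thinned to equal UMIs, the log2 ratio was 3.34 in endothelial cells and 0.65 in phagocytes, the latter under 2-fold, and after thinning no difference was detectable in duct-like cells, where the few UMIs of NRAS.MYC.ND left a limit too high to pass.

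The bases upstream of the RefSeq start of Slc16a3 are shown because this member was higher in AKT1.MYC in the most gates and is a known target of hypoxia-inducible factor. The window holds the 250 bases before the RefSeq start (GRCm38.p6, chr11:120948817-120949066, plus strand, of which 14 bases lie in annotated exons), and capitals mark matches to ACGTG, the core of the hypoxia-inducible factor motif, on either strand.
Slc16a3 promoter: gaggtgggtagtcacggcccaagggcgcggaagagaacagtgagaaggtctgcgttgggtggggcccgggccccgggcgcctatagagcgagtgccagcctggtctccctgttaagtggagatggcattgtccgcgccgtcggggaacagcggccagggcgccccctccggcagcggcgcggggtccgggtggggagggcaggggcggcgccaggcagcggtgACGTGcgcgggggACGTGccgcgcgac
Both matches lie close to the RefSeq start. The annotated gene begins further upstream, at chr11:120948480, so the window lies within its span. ACGTG occurred in 16.6% of the 32817 windows and in 12 of 41 members, among them Slc2a1, Slc16a1, Slc3a2 and Slc38a5. The longer E-box CACGTG, which contains ACGTG on both strands and is the motif that MYC binds, occurred in 6.02% of windows and in 7 members, and not in the Slc16a3 window. TGACNNNGC occurred in 10.2% of windows and 6 members, and the GATA motif AGATAA in 9.99% and 3 members.

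Other monocarboxylate carriers were placed elsewhere. Slc16a1, the common lactate carrier, was level across the epithelial gates, at 21.3 and 21.5 CPM in hepatocytes and 21.1 and 22.7 CPM in duct-like cells. Slc16a12, a creatine carrier, was high in all 3 epithelial gates, at 18.1 and 39.1 CPM in hepatocytes, 20.4 and 31.8 CPM in duct-like cells and 27.6 and 38.5 CPM in cells with both marker sets. Slc16a7 was high in hepatocytes at 27.7 and 19.1 CPM. Slc16a11 was higher in NRAS.MYC.ND hepatocytes, at 16.1 and 4.16 CPM, and duct-like cells, at 15.5 and 4.37 CPM. With the stricter gate its hepatocyte log2 ratio was -0.97, just under 2-fold. Its neighbour Slc16a13, which lies 372 bases away on chromosome 11, was instead high in endothelial cells at 10.9 and 8.09 CPM. Slc16a6 was spread over leukocytes, at 61.4 and 65.6 CPM in T cells and 47.8 and 92.1 CPM in neutrophils. It was higher in AKT1.MYC in endothelial cells (16.1 and 37.6 CPM) and in epithelial cells with both marker sets (10.2 and 32.9 CPM). In hepatocytes Slc16a6 stood at 13.3 and 28.1 CPM, a difference not seen with cells thinned to equal UMIs (log2 ratio -0.066).

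Slc16a9, a carnitine carrier (chr10:70245100-70285968, plus strand), was higher in Kupffer-like cells than in the other phagocytes. It stood at 41.6 against 2.07 CPM in Kupffer-like cells and in phagocytes without a raised Kupffer marker in NRAS.MYC.ND (20.1-fold, 11.6 to 37.6) and at 14.6 against 0.473 CPM in AKT1.MYC (30.9-fold, 8.90 to 135), so the contrast was present in both libraries, although the AKT1.MYC value rests on 10 UMIs in Kupffer-like cells. Fibroblasts of AKT1.MYC held 17.7 CPM. Kupffer-like cells made up 285 of 1400 phagocytes (20.4%) in NRAS.MYC.ND and 140 of 1973 (7.10%) in AKT1.MYC, at median depths of 13572 and 3453 UMIs. Over all phagocytes Slc16a9 was 9.53-fold higher in NRAS.MYC.ND, at 15.5 and 1.63 CPM, where the summed Kupffer markers stood at 4998 and 518 CPM. Among phagocytes with no raised Kupffer marker the log2 ratio was -2.13, from -3.25 over all. Slc7a8, which carries large neutral amino acids (chr14:54722209-54781946, minus strand), followed the same order, at 186 against 61.5 CPM in NRAS.MYC.ND (3.02-fold, 2.67 to 3.42) and 86.2 against 42.97 CPM in AKT1.MYC (2.01-fold, 1.497 to 2.65). Across all phagocytes Slc7a8 stood at 108 CPM (102 to 114) and 48.2 CPM (44.1 to 52.6), 2.24-fold higher in NRAS.MYC.ND, and without Kupffer-marked cells the log2 ratio was -0.52, under 2-fold. Slc7a2 was also higher in Kupffer-like cells, 2.87-fold, 1.80 to 4.62 in NRAS.MYC.ND and 2.38-fold, 1.30 to 4.10 in AKT1.MYC, and so were Slc43a2 (1.68-fold, 1.504 to 1.87 and 1.51-fold, 1.28 to 1.77) and Slc7a7 (1.65-fold, 1.42 to 1.91 and 1.58-fold, 1.11 to 2.19). The glutamate carrier Slc1a2 held 43 UMIs in Kupffer-like cells of NRAS.MYC.ND and 0 in phagocytes with no raised Kupffer marker. Its relative Slc1a3 stood at 10.6 against 4.45 CPM in the same cells (2.39-fold, 1.44 to 3.98).

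Of the amino acid carriers high in hepatocytes, Slc38a3 and Slc7a2 passed 2-fold toward NRAS.MYC.ND in that gate. Slc38a3, a sodium-coupled glutamine and histidine carrier of liver (chr9:107650634-107669530, minus strand), stood at 133 CPM (119 to 149) and 24.9 CPM (19.5 to 31.4), 5.35-fold apart without overlap (log2 ratio -2.42, -2.81 to -2.05). It was also higher in NRAS.MYC.ND in duct-like cells, at 23.9 and 7.65 CPM, and in cells with both marker sets, at 98.8 and 12.2 CPM. A Slc38a3 UMI was seen in 28.1% (23.4% to 33.2%) and 14.3% (10.8% to 18.5%) of hepatocytes, or 7.02% and 1.28% after thinning to 636 UMIs, against 1.67% (0.914% to 2.78%) and 0.748% (0.155% to 2.17%) of the endothelial cells, which were deeper at medians of 7329 and 6785 against 2151 and 2074 UMIs. Slc38a4, a neutral and cationic amino acid carrier of liver, followed at 123 CPM (109.6 to 138) and 75.2 CPM (65.5 to 85.9), which is under 2-fold. It passed 2-fold toward NRAS.MYC.ND in duct-like cells, at 57.6 and 24.8 CPM, and in cells with both marker sets, at 96.4 and 41.2 CPM. Slc7a2, the arginine carrier of liver, stood at 80.4 and 32.9 CPM in hepatocytes, 2.44-fold higher in NRAS.MYC.ND. That log2 ratio of -1.29 became -0.37 with the stricter gate and -0.58 with every cell weighed the same, both under 2-fold. In cells with both marker sets Slc7a2 was 18.0-fold higher, at 78.0 and 4.34 CPM (log2 ratio -4.17, -4.88 to -3.52). Slc1a4, a carrier of small neutral amino acids, was low but above the mean of the other gates in hepatocytes, at 7.63 and 3.81 CPM (4.31-fold and 2.97-fold). Fibroblasts of AKT1.MYC held 146 CPM of Slc7a2, above every epithelial gate of that library. Slc3a1, the heavy chain of the cystine and dibasic amino acid carrier, was high in hepatocytes and did not differ by 2-fold, at 17.7 and 20.4 CPM. Its light chain Slc7a9 held 2 UMIs in each hepatocyte gate. In the hepatocyte gate as a whole, the marker sums given above differed between the libraries in the same direction as Slc38a3, and their part in these ratios was not tested.

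Slc7a5, Slc7a6, Slc3a2 and Slc43a2, which serve the transport of large neutral amino acids, passed 2-fold toward AKT1.MYC in hepatocytes. Other carriers of such amino acids did not. The branched-chain carrier Slc43a1 went the other way, at 9.64 CPM from 24 UMIs against 0 UMIs in AKT1.MYC. Slc7a8 stood at 3.62 and 3.12 CPM, from 9 UMIs in each library. Slc7a5, the leucine light chain, stood at 2.01 and 13.2 CPM (5 and 38 UMIs), 6.55-fold higher in AKT1.MYC (log2 ratio 2.71, 1.36 to 4.41). Slc7a6, a light chain that exchanges cationic for neutral amino acids, stood at 0.804 and 11.1 CPM from 2 and 32 UMIs. For both, the NRAS.MYC.ND level was within the free RNA estimate. The heavy chain Slc3a2 differed in the same direction, at 46.2 and 93.5 CPM (log2 ratio 1.02, 0.70 to 1.34). It was under 2-fold when every cell weighed the same (0.71) and when cells were thinned (0.88). Slc43a2, a sodium-independent carrier of branched-chain amino acids and phenylalanine, stood at 20.9 CPM (15.6 to 27.4) and 104 CPM (92.8 to 117), 4.99-fold higher in AKT1.MYC, although the NRAS.MYC.ND level did not exceed the free RNA estimate of 21.2 CPM. The glutamine exchanger Slc1a5 stood at 8.44 and 21.8 CPM, but with every cell weighed the same the log2 ratio turned from 1.37 to -1.59. Slc7a4, a relative of the cationic carriers with no settled substrate, stood at 2.81 and 17.7 CPM in hepatocytes and 17.6 and 20.9 CPM in duct-like cells. In AKT1.MYC, levels in hepatocytes, duct-like cells and cells with both marker sets were close for several of these members. In that order they were 13.2, 12.1 and 10.1 CPM for Slc7a5 and 11.1, 14.96 and 13.0 CPM for Slc7a6. For Slc43a2 they were 104, 111 and 112 CPM, and for Slc7a4 17.7, 20.9 and 17.9 CPM. The hepatocyte and duct-like marker sums of the hepatocyte gate, given above, differed between the libraries. Their part in these ratios was not tested. Slc7a7, which exports dibasic amino acids, was higher in AKT1.MYC in duct-like cells (9.13 and 24.0 CPM) and cells with both marker sets (9.69 and 29.6 CPM). In duct-like cells its log2 ratio was 0.93 with the stricter gate and 0 when thinned, under 2-fold in both. Slc7a7 was found in phagocytes of both libraries as well, at 73.3 and 39.1 CPM.

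**Figure D3:**
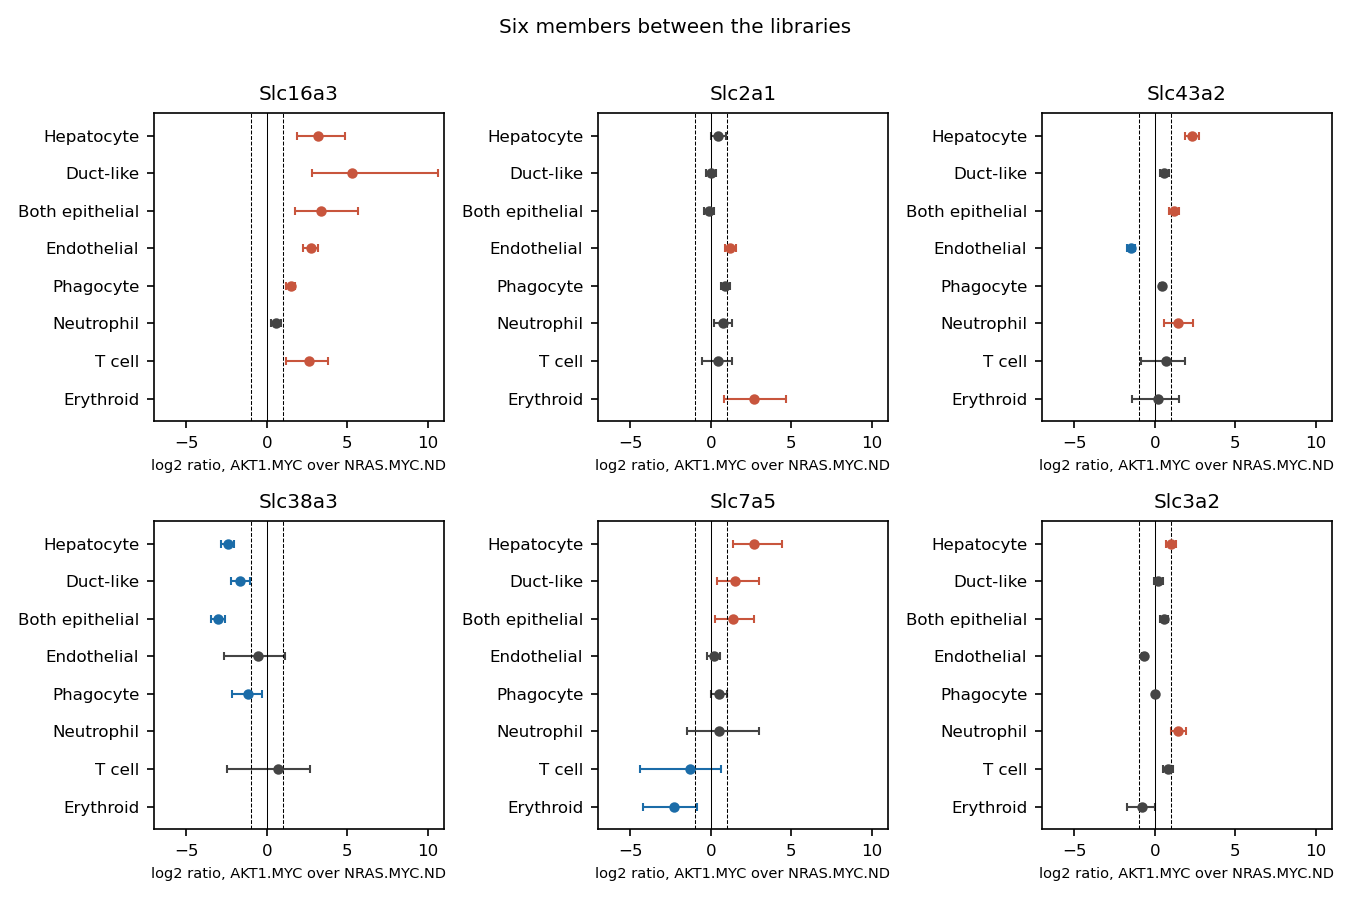
Log2 ratio of AKT1.MYC over NRAS.MYC.ND for Slc16a3, Slc2a1, Slc43a2, Slc38a3, Slc7a5 and Slc3a2 in each shared gate where the gene was measured in both libraries, with exact 95% intervals of counting error as bars. Dashed lines mark 2-fold, red points pass it toward AKT1.MYC, blue points toward NRAS.MYC.ND and dark points in neither direction. Slc16a3 lies to the right in every gate shown, whereas Slc43a2 and Slc7a5 change side between gates.

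Slc43a2 differed in direction between gates. Endothelial cells held 146 CPM (137 to 154) and 52.3 CPM (44.97 to 60.5), 2.78-fold higher in NRAS.MYC.ND, while the phagocyte gate, in which Slc43a2 was high in both libraries, held 132 and 180.4 CPM and stayed within 2-fold. Slc43a3, which carries purine nucleobases (chr2:84936579-84958509, plus strand), was the endothelial member of this family, at 404 CPM (389.9 to 418) and 239 CPM (223 to 256), 18.9-fold and 15.6-fold above the mean of the other gates. A Slc43a3 UMI was seen in 85.4% (82.8% to 87.7%) and 63.3% (58.4% to 68.1%) of endothelial cells, at median depths of 7329 and 6785 UMIs, or 51.4% and 35.2% after thinning, against 4.93% (2.90% to 7.77%) and 5.37% (3.22% to 8.36%) of hepatocytes. Fibroblasts of AKT1.MYC stood higher still, at 435 CPM (416 to 455). The neutrophil values of Slc43a3, 1.84 and 24.2 CPM, had intervals that did not lie above the free RNA estimates of 40.1 and 20.8 CPM. The NRAS.MYC.ND value, with an upper limit of 10.2 CPM, lay below its estimate, so the estimate was too high for this gene and gate. Slc38a1, a sodium-coupled glutamine carrier, differed most between the libraries in endothelial cells, at 3.91 CPM (2.67 to 5.52) and 30.6 CPM (25.1 to 37.1), 7.84-fold higher in AKT1.MYC. Toward NRAS.MYC.ND, Slc7a8 (21.9 and 5.78 CPM) and Slc38a6 (38.2 and 15.3 CPM) passed 2-fold in endothelial cells, although thinned to equal UMIs the log2 ratio of Slc38a6 was -0.87, under 2-fold. The summed endothelial markers stood at 12323 and 7107 CPM with 11 and 11 of 11 detected. The leading genes of the gate included Lyve1 and Oit3 in NRAS.MYC.ND, Gja5 and Sox17 in AKT1.MYC, and Pcdh17 and Ldb2 in both. The endothelial gates may thus differ in the vessels they hold, and the part of this in the ratios was not tested.

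Slc38a1 and Slc1a5 were the members high in T cells in both libraries. Slc38a1 stood at 168 CPM (157 to 181) and 124 CPM (87.0 to 172) in T cells, intervals that overlap, 7.27-fold and 4.05-fold above the mean of the other gates. B cells and plasmacytoid dendritic cells, gated in NRAS.MYC.ND alone, held 254 and 311 CPM. Slc38a2, an amino acid carrier induced by starvation that lies 44479 bases from Slc38a1 on chromosome 15, stood at 334 and 386 CPM in T cells, 364 and 362 CPM in endothelial cells and 484 CPM in B cells. The T cell and endothelial levels of Slc38a2 differed between the libraries by less than their counting error. Slc1a5 was high in T cells at 103 and 69.0 CPM and stood at 95.7 CPM in B cells, 70.7 in plasmacytoid and 55.3 in conventional dendritic cells. The summed T cell markers stood at 11489 and 4247 CPM, and their part in these values was not tested. Slc38a9, the lysosomal arginine sensor, reached 51.1 CPM in B cells, and Slc7a5 reached 73.8 CPM in plasmacytoid dendritic cells. Within the T cells of NRAS.MYC.ND, 71 cells with at least 3 raised cycling markers were set against 894 with none. Cycling cells held more Slc7a5, at 38.1 against 9.26 CPM (4.12-fold, 2.34 to 7.30). Slc7a6 (2.57-fold, 1.11 to 5.79) and Slc16a1 (2.48-fold, 1.35 to 4.51) were higher in them as well. Slc3a2 and Slc16a6 were lower in the cycling cells, at 124 against 208 CPM and 34.3 against 68.1 CPM, while Slc38a1 hardly differed at 175 against 168 CPM. These cells had median depths of 10009 and 2772.5 UMIs, and AKT1.MYC held 3 cycling T cells, too few to compare.

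Erythroid cells held a group of members in NRAS.MYC.ND that was near its detection limit in AKT1.MYC. Slc38a5, a glutamine carrier (chrX:8271133-8280179, plus strand), stood at 119.8 CPM (94.0 to 150.3) from 74 UMIs in 22 of 76 cells and at 0 UMIs in 131 cells of AKT1.MYC. A count of 0 there allows up to 22.1 CPM, so the NRAS.MYC.ND level was at least 5.42-fold higher. Slc43a1, a carrier of branched-chain amino acids (chr2:84838850-84863594, plus strand), stood at 151 CPM (121 to 184) and 7.37 CPM (0.187 to 41.0), the latter from 1 UMI. Slc7a5 followed at 142 and 29.5 CPM, Slc1a5 at 108 and 7.37 CPM, the aromatic amino acid carrier Slc16a10 at 84.2 and 14.7 CPM and Slc16a1 at 76.1 and 7.37 CPM. These carriers differed in the same direction, and in NRAS.MYC.ND erythroid cells were the highest shared gate for Slc38a5, Slc43a1, Slc7a5, Slc16a1, Slc16a10 and Slc1a5, the last with an interval that overlaps that of T cells. Features of the gates stand beside this. The AKT1.MYC gate held 135735 UMIs in all, so that 1 UMI is worth 7.37 CPM, and 67.8% of them were estimated to be free RNA, against 617905 UMIs and 17.6% in NRAS.MYC.ND. Haemoglobin took 50.6% and 27.5% of the UMIs, and the leading genes included Slfn14 and Rhag in NRAS.MYC.ND and Hba-a1 and Hba-a2 in AKT1.MYC. With free RNA subtracted, the erythroid log2 ratio of Slc16a1 was -0.74, from -3.37, under 2-fold. The part of these features in the ratios was not tested. Slc43a1 was called besides in hepatocytes, at 9.64 CPM against 0 UMIs in AKT1.MYC, which is 9.28-fold at the limit of 3 counts.

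Counts of members past 2-fold were set against the share of all genes in each gate. In hepatocytes 7 of 36 measured members passed 2-fold toward NRAS.MYC.ND (against 11.4% of all genes) and 10 toward AKT1.MYC (against 24.5%). Of the 7, 5 had an interval that excluded 1-fold. Fewer than 7 passed with the stricter gate, without the top 5% of cells or when thinned. In duct-like cells 11 of 44 measured members passed 2-fold toward NRAS.MYC.ND (against 16.9% of all genes) and 8 toward AKT1.MYC (against 6.9%), and in epithelial cells with both marker sets 10 of 38 measured members passed 2-fold toward NRAS.MYC.ND (against 13.3% of all genes) and 11 toward AKT1.MYC (against 17.5%). In endothelial cells 3 of 38 measured members passed 2-fold toward NRAS.MYC.ND (against 12.3% of all genes) and 10 toward AKT1.MYC (against 11.1%), the latter above its background. In phagocytes 6 of 40 measured members passed 2-fold toward NRAS.MYC.ND (against 10.7% of all genes) and 9 toward AKT1.MYC (against 15.1%). In neutrophils 3 of 23 measured members passed 2-fold toward NRAS.MYC.ND (against 8.72% of all genes) and 8 toward AKT1.MYC (against 33.1%). In T cells 3 of 29 measured members passed 2-fold toward NRAS.MYC.ND (against 12.4% of all genes) and 4 toward AKT1.MYC (against 13.5%), and in erythroid cells 9 of 18 measured members passed 2-fold toward NRAS.MYC.ND (against 17.9% of all genes) and 1 toward AKT1.MYC (against 30.7%), the former above its background and the latter below. The median log2 ratio of members was 0.14 in hepatocytes against 0.39 over all genes, 0.11 against -0.10 in endothelial cells, 0.33 against 0.05 in phagocytes, 0.59 against 0.56 in neutrophils, 0.32 against 0 in T cells and -1.13 against 0.29 in erythroid cells. In duct-like cells it was 0 against -0.15, and in cells with both marker sets 0.20 against 0.13. The members' median and that of all genes had opposite signs in endothelial and erythroid cells. The all-gene median itself depends on the scaling: with the median of gene ratios as the scale it was 0.04 in hepatocytes, 0 in duct-like cells, 0.44 in neutrophils and -0.69 in erythroid cells, and with the upper quartile 0.06, 0, 0.17 and -0.07. When all cells were thinned to equal UMIs most of these counts were lower, with the values given after the results.

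**Figure D4:**
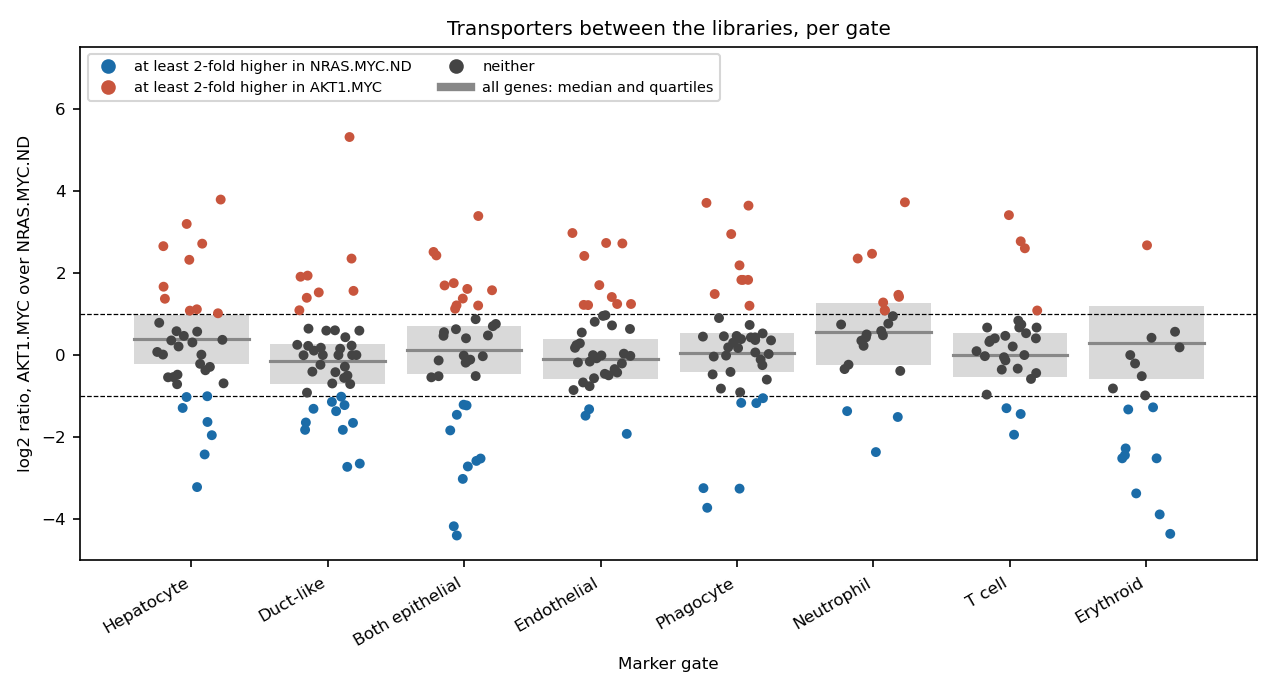
Log2 ratio of AKT1.MYC over NRAS.MYC.ND for every member measured in a gate (at least 10 UMIs over both libraries), 1 point per member with random sideways spread. Grey bands and lines are the quartiles and the median of all genes measured, dashed lines mark 2-fold, and members with 0 UMIs in a library are drawn at the limit of 3 counts, or at 0 where that limit is not passed. The erythroid points lie mostly below 0 while the all-gene median there is 0.29.

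The pathways that these carriers feed were described by lists of named genes. Of the first enzymes after glucose and lactate entry, 9 of 13 measured in hepatocytes passed 2-fold toward AKT1.MYC (against 24.5% of all genes) and 1 toward NRAS.MYC.ND (against 11.4%), with a median log2 ratio of 1.45 against 0.39 over all genes there. The glycolytic enzymes Aldoa (119.7 and 718 CPM), Eno1 (198 and 695 CPM) and Pkm (135 and 459 CPM) were among them. Toward AKT1.MYC the same list had 5 of 13 in duct-like cells (against 6.9% of all genes), 5 of 12 in cells with both marker sets (17.5%), 4 of 13 in neutrophils (33.1%), 2 of 13 in endothelial cells (11.1%) and 1 of 13 in phagocytes (15.1%). Toward NRAS.MYC.ND it had 0, 0, 1, 1 and 1 in the same gates, against 16.9%, 13.3%, 8.72%, 12.3% and 10.7% of all genes. Erythroid cells had 6 of 8 toward AKT1.MYC (30.7%) and 1 toward NRAS.MYC.ND (17.9%). The median log2 ratio of the list there was 1.81 against 0.29 over all genes. T cells had 1 of 12 toward AKT1.MYC (13.5%) and 1 toward NRAS.MYC.ND (12.4%). Of 12 genes of glutamine, asparagine and serine metabolism, 3 passed 2-fold toward NRAS.MYC.ND in hepatocytes (against 11.4% of all genes) and 1 toward AKT1.MYC (against 24.5%). Gls2, the liver-type glutaminase, stood at 92.4 and 2.77 CPM, and Glud1, glutamate dehydrogenase, at 1204 and 332 CPM. In duct-like cells, endothelial cells and phagocytes 5 of 12 passed toward AKT1.MYC (against 6.9%, 11.1% and 15.1%). In each, 1 passed toward NRAS.MYC.ND (16.9%, 12.3% and 10.7%). Neutrophils had 5 of 11 toward AKT1.MYC (33.1%) and 0 toward NRAS.MYC.ND (8.72%). In the same order, cells with both marker sets had 2 and 2 of 12 (17.5% and 13.3%). T cells had 2 and 0 of 12 (13.5% and 12.4%) and erythroid cells 4 and 2 of 8 (30.7% and 17.9%). In erythroid cells the asparagine synthetase Asns stood at 125 CPM and 0 UMIs, the same pattern as Slc38a5. Among the chaperones of these carriers, Bsg, which brings Slc16a1 and Slc16a3 to the membrane, stood at 91.8 and 519 CPM in neutrophils (log2 ratio 2.50, 2.08 to 2.94) and 532 and 1368 CPM in hepatocytes. Arrdc4, an arrestin relative that removes glucose carriers from the surface, stood at 47.8 and 169 CPM in neutrophils, and its relative Txnip at 497 and 177 CPM in duct-like cells. Of the amino acid sensing genes, 5 of 9 measured were higher in neutrophils of AKT1.MYC and 0 in NRAS.MYC.ND, including Lamtor2 (77.1 and 193 CPM), a subunit of the lysosomal anchor of mTORC1, and the stress factor Ddit3 (53.3 and 116 CPM), in a gate where 33.1% of all genes were higher in that library. Of 15 other carriers measured in hepatocytes, 4 passed 2-fold toward NRAS.MYC.ND and 3 toward AKT1.MYC, against the same shares of all genes, with the creatine carrier Slc6a8 at 8.44 and 58.9 CPM and the taurine and GABA carrier Slc6a13 at 95.2 and 30.1 CPM.

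Further differences of at least 2-fold completed the picture by gate. In duct-like cells Slc7a5 (4.21 and 12.1 CPM), its relative Slc7a6 (7.02 and 14.96 CPM), the heavy chain Slc3a1 (1.40 and 5.37 CPM), the pyruvate carrier Slc16a7 (2.81 and 8.30 CPM) and the glutamate carrier Slc1a2 (1.40 and 7.16 CPM) were higher in AKT1.MYC. The NRAS.MYC.ND values of Slc7a5, Slc3a1, Slc16a7 and Slc1a2 rest on 6, 2, 4 and 2 UMIs. The log2 interval of Slc3a1 ran from 0.046 to 5.00. Slc7a2 (14.8 and 2.24 CPM) and Slc43a3 (21.8 and 8.45 CPM) were higher there in NRAS.MYC.ND, the latter with levels no higher than the free RNA estimate. In cells with both marker sets the branched-chain carrier Slc43a2 (48.4 and 112 CPM), the glutamine exchanger Slc1a5 (9.20 and 20.1 CPM), Slc7a1 (4.36 and 13.0 CPM), Slc7a4 (5.33 and 17.9 CPM), Slc7a5 (3.88 and 10.1 CPM) and Slc7a6 (2.42 and 13.0 CPM) were higher in AKT1.MYC. The aromatic amino acid carrier Slc16a10 (35.8 and 10.1 CPM), Slc16a11 (7.75 and 3.35 CPM) and the lysosomal glutamine carrier Slc38a7 (14.0 and 5.13 CPM) were higher in NRAS.MYC.ND in the same cells. Several of these ratios were under 2-fold with another setting. Thinned to equal UMIs, the log2 ratio in duct-like cells was 0.53 for Slc7a5 and 0 for Slc7a6, and that of Slc43a2 in cells with both marker sets was 0.45. With the stricter gate it was 0.62 for Slc7a6 and 0.67 for Slc3a1 in duct-like cells and -0.85 for Slc38a7 in cells with both marker sets. With every cell weighed the same it was -0.11 for Slc43a3 in duct-like cells, and in cells with both marker sets 0.81 for Slc7a5, 0.68 for Slc1a5 and 0.26 for Slc16a11. In these gates the hepatocyte and duct-like marker sums also differed, at 39529 and 7509 CPM and at 6022 and 13342 CPM in cells with both sets, and their part was not tested. Phagocytes of NRAS.MYC.ND held more of the glutamate carriers Slc1a2 (4.53 and 0.479 CPM) and Slc1a3 (6.31 and 0.479 CPM), beside the Kupffer markers given above. Among phagocytes with no raised Kupffer marker the log2 ratio of Slc1a3 was -5.23, from -3.72. That value had 30 UMIs in NRAS.MYC.ND, and AKT1.MYC held only 5 over all its phagocytes, so the size of the change is uncertain. Slc7a6 (2.67 and 6.14 CPM) and Slc38a3 (3.23 and 1.44 CPM) differed in phagocytes as well, with the higher library not above the free RNA estimate for either. The same limit held for Slc38a4 in endothelial cells (1.95 and 5.20 CPM), where Slc16a10 stood at 1.95 and 4.62 CPM. In neutrophils Slc43a2 (25.7 and 68.7 CPM) and Slc38a10 (12.9 and 31.2 CPM) were higher in AKT1.MYC, and in erythroid cells Slc43a3 (92.2 and 36.8 CPM) was higher in NRAS.MYC.ND. Of these, Slc43a2 in neutrophils was under 2-fold when thinned (0.70), Slc38a10 with every cell weighed the same (0.88) and erythroid Slc43a3 with free RNA subtracted (-0.76).

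Many members stayed low in every gate. Slc1a1, Slc1a6, Slc2a4, Slc2a5, Slc2a10, Slc2a12, Slc7a3, Slc7a9, Slc7a14, Slc16a4, Slc16a5, Slc16a8 and Slc16a14 reached at most 12.9 CPM in any gate of at least 50 cells. Slc2a4, the insulin-responsive glucose carrier, accounted for that value, in the erythroid cells of NRAS.MYC.ND. Slc1a6, a glutamate carrier, was seen chiefly in AKT1.MYC fibroblasts, at 9.09 CPM. Slc7a1, the common arginine carrier, stayed between 4.36 and 25.6 CPM over the epithelial, endothelial and phagocyte gates. Slc38a7, a lysosomal glutamine carrier, was high in phagocytes at 14.4 and 17.7 CPM. Slc38a10 was instead present throughout, from 12.9 CPM in NRAS.MYC.ND neutrophils to 115 CPM in AKT1.MYC fibroblasts. Slc43a1 and Slc43a3 lie 72985 bases apart on chromosome 2 and had different highest gates in NRAS.MYC.ND, erythroid cells for the former and endothelial cells for the latter. By annotation, 10 members overlap another gene on the same strand and 23 on the opposite strand, and such overlaps could share reads.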

How the data were processed

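The deposited matrices hold raw UMI counts per gene and barcode, with mm10 as the build and Cell Ranger 6.1.2 as the tool per the submitters' processing notes, and 6.1.1 per the file headers. Which annotation was used is not given in the sources here. The 10x 3' v2 chemistry is stated in the labels' protocols. A cell was kept from 500 UMIs and 250 genes up, with mitochondrial UMIs of 20% or less, and no doublet caller was run.

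A marker was raised in a cell when it had a UMI and its share was at least 2 times the library's mean per-cell share. A gate required 3 raised markers, and the second type's share of raised markers could be at most 0.5 of the own. Cells over that limit formed the gate with both sets when hepatocyte and duct-like were their 2 leading types. They needed 3 raised markers of each, and the third type's share could be at most 0.5 of the first. Of 150 markers, 149 matched. This gate rule was chosen after values under a version with the UMI-weighted library mean had been seen, and that version is among the alternatives.

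Counts were summed per gate and library. Ratios have exact conditional binomial intervals, shares exact Clopper-Pearson intervals, all 95%. A count of 0 was set to the limit of 3 counts, and higher means at least 2-fold with at least 10 UMIs over both libraries. Members are named at 50 CPM or more in a gate, or when called with an interval excluding 1-fold and at least 30 UMIs. Gate-high, sub-gate and pathway members, members low in every gate and some contrasts beside them were named after their values were seen. The values of 1 member, which is included in the counts, are not reported here. The members, lists and tests were chosen with earlier results of these data known. Free RNA was estimated as the hepatocyte marker share of a gate over that of all kept cells. For the 3 epithelial gates the median of the other gates was used. Identifiers of all 56 members matched GENCODE vM21 (GRCm38). Promoters are from RefSeq. Computations used numpy 2.4.6, scipy 1.17.1 and pandas 2.3.3, and the ratio step was tested on simulated data. Of 56 genes in the pathway lists, 55 matched. Counts of members and the 77 named ratios were recomputed under 10 listed alternatives and 3 added after seeing the data, as far as each left them measurable (43 ratios when thinned, 70 with free RNA subtracted, 7 without Kupffer-marked cells). Counts of members high in a gate were recomputed under 8. The Kupffer-like and cycling T cell contrasts and the pathway lists were not.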

Additional observations from a re-analysis of the deposited data

Results flagged for a closer look

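In 7 members the libraries differed by at least 2-fold in opposite directions in different gates, each with a counting interval that excluded 1-fold. A log2 ratio above 0 means a higher level in AKT1.MYC. The differences between gates were not tested, since each rests on 1 library per group. Slc43a2 had log2 ratios of -1.48 in endothelial cells, 2.32 in hepatocytes, 1.21 in epithelial cells with both marker sets and 1.42 in neutrophils. For Slc7a5 the values were -2.27 in erythroid cells, 2.71 in hepatocytes, 1.52 in duct-like cells and 1.38 in cells with both marker sets. Slc1a5 stood at -3.88 in erythroid cells, 1.37 in hepatocytes and 1.13 in cells with both marker sets. Slc38a4 gave -1.22 in duct-like cells, -1.23 in cells with both marker sets and 1.41 in endothelial cells, where the interval of the higher library was not above the free RNA estimate. The values of Slc43a3 were -1.37 in duct-like cells and 3.72 in neutrophils, where the interval of the higher library was not above the free RNA estimate, and -1.32 in erythroid cells. Slc16a10 had -1.83 in cells with both marker sets, -2.51 in erythroid cells and 1.24 in endothelial cells. The glutamate carrier Slc1a2 had -3.24 in phagocytes, from 56 and 5 UMIs, and 2.35 in duct-like cells, from 2 and 144 UMIs.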

How the results depend on the processing

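Of 194 recomputed counts of members at least 2-fold higher per gate and library, 156 stayed within 1.5 times the main count and 38 did not. None of the 16 counts moved that far with at most 10% mitochondrial UMIs, median of ratios scaling, removal of haemoglobin and mitochondrial UMIs, or markers set against the UMI-weighted mean. Thinning moved 13, with fewer members measured: higher in NRAS.MYC.ND, 2 in hepatocytes (from 7), 5 in duct-like cells (from 11), 6 in cells with both marker sets (from 10), 3 in phagocytes (from 6) and 1 in erythroid cells (from 9) and, higher in AKT1.MYC, 2 in hepatocytes (from 10), 3 in duct-like cells (from 8), 5 in cells with both marker sets (from 11), 6 in endothelial cells (from 10), 4 in phagocytes (from 9), 4 in neutrophils (from 8), 1 in T cells (from 4) and 0 in erythroid cells (from 1). The stricter gate gave, higher in NRAS.MYC.ND, 3 in hepatocytes (from 7) and 6 in endothelial cells (from 3) and, higher in AKT1.MYC, 4 in duct-like cells (from 8), 5 in neutrophils (from 8) and 2 in T cells (from 4). Leaving out the top 5% of cells gave, higher in NRAS.MYC.ND, 4 in hepatocytes (from 7) and 5 in endothelial cells (from 3) and, higher in AKT1.MYC, 5 in neutrophils (from 8). With every cell weighed the same the counts were, higher in NRAS.MYC.ND, 6 in endothelial cells (from 3) and 5 in neutrophils (from 3) and, higher in AKT1.MYC, 2 in erythroid cells (from 1). Free RNA subtracted left, higher in NRAS.MYC.ND, 1 in T cells (from 3) and, higher in AKT1.MYC, 5 in endothelial cells (from 10), 5 in phagocytes (from 9), 1 in T cells (from 4) and 0 in erythroid cells (from 1). At least 30 UMIs in the gate left, higher in AKT1.MYC, 6 in endothelial cells (from 10), 3 in phagocytes (from 9), 4 in neutrophils (from 8), 1 in T cells (from 4) and 0 in erythroid cells (from 1). At least 1000 UMIs per cell left, higher in AKT1.MYC, 2 in T cells (from 4) and 0 in erythroid cells (from 1). Upper quartile scaling left, higher in AKT1.MYC, 5 in neutrophils (from 8), and phagocytes with no raised Kupffer marker, an alternative added after seeing the data, left, higher in NRAS.MYC.ND, 3 in phagocytes (from 6). Beyond what each setting removes, the causes were not tested.

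Of the 77 named log2 ratios, none reversed under either scaling and 4 reversed under 1 setting each: Slc1a5 in hepatocytes (-1.59) and Slc16a11 in cells with both marker sets (0.26) with every cell weighed the same, Slc16a6 in hepatocytes (-0.066) when thinned, and Slc7a6 in phagocytes (-0.021) with free RNA subtracted. Thinning left 43 ratios measurable, of which 14 were under 2-fold. Of all 77, 13 were under 2-fold with every cell weighed the same, 10 with the stricter gate, 9 without the top 5% of cells, and at most 5 under each other setting but thinning. Counts of members high in a gate stayed between 4 and 6 in neutrophils and between 1 and 7 in hepatocytes, where thinning left 4 measured. Depth limits erythroid cells of AKT1.MYC most, where the limit of 3 counts for 0 UMIs is 22.1 CPM, against at most 10.4 CPM in any other shared gate. No paired analysis was possible because each group has 1 library.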
